A study of Mus musculus with 16 samples.

Results

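The 10 genes described here encode endocytic receptors that mark tissue-resident macrophages of the mouse: the C-type lectins Cd209b, Cd209d, Cd209f, Cd209g, Mrc1 and Clec10a, the hemoglobin scavenger receptor Cd163, the hyaluronan receptor Lyve1, the folate receptor Folr2 and the phosphatidylserine receptor Timd4. They were picked by symbol, as 10 of the 18346 genes in the deposited count table, with the levels in all 4 groups of hearts already known. Their levels are therefore given as a description. Where one of them is said to be called, it passed the threshold of the fit over all genes (adjusted p under 0.05), which is likewise a description and no independent test. All 10 were among the 13373 genes that passed the filter on low counts and entered the fit. Cd209b, Cd209d, Cd209f and Cd209g passed it through the aged groups, since their counts in young hearts were at most 9.75 per library.

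RNA was sequenced from whole hearts of 4 groups of mice, with 4 separate hearts in each. They were KO_Aged (systemic Armh4 knockout, 25 months), WT_Aged (wild-type C57BL/6J, 25 months), KO_Young (systemic Armh4 knockout, 8 weeks) and WT_Young (wild-type C57BL/6J, 8 weeks). The knockout is not restricted to a cell type, so it includes the macrophages, and the sources used here do not say how the allele was made. The titles of the 4 young wild-type samples begin with WO, and their genotype label reads WT. Each heart is called by its group and animal number, and values are given in the order KO_Aged-114, KO_Aged-115, KO_Aged-122 and KO_Aged-125, WT_Aged-1, WT_Aged-4, WT_Aged-5 and WT_Aged-12, KO_Young-27, KO_Young-31, KO_Young-38 and KO_Young-53, and WT_Young-29, WT_Young-34, WT_Young-39 and WT_Young-42.

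Each library held between 11456503 and 13298660 counts. Armh4, the targeted gene, averaged 1.14 ± 0.368 CPM (counts scaled to library depth; SD, n = 4) in aged KO hearts and 18.5 ± 1.93 CPM in aged WT hearts. It averaged 0.374 ± 0.198 CPM in young KO hearts and 15.5 ± 2.49 CPM in young WT hearts, so the genotype labels matched the counts in every library. The heart muscle genes Myh6 and Tnnt2 stood at 4255.36 to 6981.35 and 7605.67 to 10257.07 FPKM (scaled to depth and to transcript length) over the 16 hearts. In bulk tissue such as this, fewer cells of a type and less RNA per cell cannot be told apart.

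Resident macrophages are seeded in the heart before and around birth and renew there by division, with a share replaced over life from blood monocytes. Lyve1, Folr2 and Timd4 are the usual markers of the self-renewing cells, which lie along vessels and clear dying cells and cellular debris, while Ccr2 marks cells that came from monocytes. The mannose receptor Mrc1 and the galactose-type lectin Clec10a bind sugars at the ends of glycoproteins, Cd163 takes up hemoglobin bound to haptoglobin, and the Cd209 family, related to human DC-SIGN, binds mannose-rich and fucosylated glycans. Cd209b, also known as SIGNR1, is known for its expression on marginal zone macrophages of the spleen.

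The 4 Cd209 genes lie in 1 cluster on mouse chromosome 8, and their upstream sequences are shown because those of Cd209f and Cd209g are near copies of each other, and the reads of these genes were also counted as shared. Each line gives the 120 bases before the RefSeq start on the gene's strand in GRCm38.p6, which is an older build than the GRCm39 named in the submitters' processing notes. Capitals mark the TATA box match TATAAA in Cd209f (chr8:4105765-4105884, minus strand) and Cd209g (chr8:4134616-4134735, plus strand), a match to the C/EBP motif TTNNGNAA in Cd209b (chr8:3926842-3926961, minus strand) and a match to the PU.1/ETS core GGAAGT in Cd209d (chr8:3878500-3878619, minus strand).
Cd209f: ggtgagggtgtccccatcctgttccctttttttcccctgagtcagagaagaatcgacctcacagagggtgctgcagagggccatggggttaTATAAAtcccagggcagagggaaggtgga
Cd209g: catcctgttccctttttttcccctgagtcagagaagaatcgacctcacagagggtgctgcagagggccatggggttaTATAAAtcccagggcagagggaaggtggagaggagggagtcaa
Cd209b: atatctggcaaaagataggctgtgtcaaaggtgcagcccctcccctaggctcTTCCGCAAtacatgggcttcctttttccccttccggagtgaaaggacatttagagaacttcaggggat
Cd209d: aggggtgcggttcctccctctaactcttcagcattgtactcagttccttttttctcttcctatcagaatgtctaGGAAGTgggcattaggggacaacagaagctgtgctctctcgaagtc

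Cd209f and Cd209g shared an unbroken run of 154 identical bases, which ended at position -1 in Cd209f and at -15 in Cd209g, so that the annotated starts were offset by 14 bases. In the 250 bases before the start these promoters were 84.0% identical when aligned, against 66.0% for Cd209b and Cd209d, whose longest shared run was 12 bases. The other 53 pairs among the Cd209 and member promoters in the table were 47.2% to 63.6% identical. The TATA box match began at -29 in Cd209f and at -43 in Cd209g, and 13.6% of all 32544 RefSeq promoter windows of the same 300 bases held TATAAA on either strand. The C/EBP match of Cd209b began at -68 and the GGAAGT of Cd209d at -46, and 40.7% and 23.7% of all windows held those motifs, with both strands searched. GGAAGT was also found in the windows of Mrc1, Folr2 and Timd4. No member's window held the longer PU.1 form GAGGAAGT or the STAT motif TTCNNNGAA, which 3.11% and 8.33% of all windows held. The RefSeq table matched 8 of the 10 genes and held no window for Lyve1 and Clec10a. These matches are letters only and say nothing about binding.

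The 4 Cd209 lectins had few counts in young hearts, and each was counted in every aged heart. Cd209b stood at 1.38, 1.57, 1.37 and 1.7 CPM in aged KO hearts and at 1.62, 1.19, 0.687 and 2.0 CPM in aged WT hearts. It had 0, 1, 0 and 0 counts in young KO libraries and 1, 0, 2 and 0 counts in young WT libraries. Every aged heart was above every young heart of either genotype. Summed over 4 libraries and scaled for depth, Cd209b was 72.2 times as high in aged KO as in young KO hearts (95% exact interval 12.6 to 2890, 76 against 1 count). It was 22.0 times as high in aged WT as in young WT hearts (7.23 to 109, 69 against 3 counts). These intervals cover counting error only.

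Cd209d, a paralog of Cd209b in the same cluster, was seen in young hearts only as 1, 2, 1 and 0 counts in WT libraries and 0 counts in all 4 KO libraries. In aged hearts it stood at 0.993, 1.49, 1.22 and 1.54 CPM in KO and at 0.892, 0.396, 0.153 and 2.08 CPM in WT. The aged WT hearts were the more uneven group, and WT_Aged-12, at 26 counts, was above all aged KO hearts while WT_Aged-5 had 2 counts. Aged KO hearts were at least 20.9-fold higher than young KO hearts (66 counts against 0, taken as a floor of 3 counts over the group). Aged WT hearts were 10.5 times as high as young WT hearts (95% exact interval 3.83 to 40.4, 44 against 4 counts). That interval covers counting error only and leaves out the spread of 2 to 26 counts between aged WT hearts. In WT the aged and young hearts overlapped, since WT_Aged-5 at 0.153 CPM was under WT_Young-34 at 0.161 CPM.

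Cd209f had the most counts of the 4. It stood at 4.74, 4.64, 4.41 and 4.93 CPM in aged KO hearts and at 4.13, 4.99, 3.44 and 6.16 CPM in aged WT hearts. In young hearts it stood at 0.84, 0.658, 0.742 and 0.583 CPM in KO and at 0.322, 0.402, 0.43 and 0.335 CPM in WT. The groups did not overlap between ages in either genotype, and all young KO hearts were above all young WT hearts, though on 34 against 18 counts in all. The log2 fold change with age was 2.71 ± 0.22 (SE) in KO hearts and 3.62 ± 0.25 in WT hearts.

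Cd209g stood at 1.91, 2.15, 1.6 and 0.808 CPM in aged KO hearts and at 0.729, 0.871, 0.992 and 2.4 CPM in aged WT hearts. Young KO hearts had 0.168, 0.329, 0.165 and 0.167 CPM and young WT hearts 0.241, 0.161, 0.258 and 0 CPM. Aged hearts were again above all young hearts, by 2.90 ± 0.52 in KO and 2.84 ± 0.57 in WT on the log2 scale. With limma on log2(FPKM + 1) the values for Cd209g were 1.17 in KO and 0.97 in WT, and for the 4 Cd209 genes that scale gave 0.93 to 1.83 in KO and 0.85 to 2.01 in WT. The deposited counts of Cd209f and Cd209g were fractions in 12 of 16 libraries each, and in 12 of those 12 the 2 counts added up to a whole number within 0.011. Reads were thus divided between the pair, and the split is uncertain, while the sum does not depend on it. The sum averaged 6.3 ± 0.503 CPM in aged KO hearts and 5.93 ± 1.85 CPM in aged WT hearts, and 0.913 ± 0.117 CPM in young KO hearts and 0.537 ± 0.147 CPM in young WT hearts (SD, n = 4 each).

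Between the genotypes in old age the Cd209 lectins were within their spread. The log2 fold change of aged KO over aged WT hearts was 0.13 ± 0.34 for Cd209b, 0.57 ± 0.50 for Cd209d, 0.00 ± 0.17 for Cd209f and 0.37 ± 0.38 for Cd209g. The value for Cd209d moved with single aged WT hearts, to 1.44 without WT_Aged-12 and to 0.22 without WT_Aged-5. For all 4 genes the aged genotypes overlapped, and the aged WT spread was the wider one for each gene.

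The cluster also holds Cd209a, Cd209c and Cd209e. Cd209a, which dendritic cells and some resident macrophages carry, averaged 0.967 ± 0.113 CPM in aged KO, 0.558 ± 0.405 in aged WT, 0.414 ± 0.242 in young KO and 0.206 ± 0.0819 in young WT hearts. Its change with age did not pass the threshold of adjusted p under 0.05 (edgeR's quasi-likelihood test, Benjamini-Hochberg over all tested genes) in KO (1.20 ± 0.46, adjusted p = 0.12) or in WT (1.38 ± 0.57, adjusted p = 0.0872). Cd209c rose with age in WT hearts (1.31 ± 0.32, adjusted p = 0.00546), while its KO value was 0.26 ± 0.30 (adjusted p = 0.669), and the difference between these changes did not pass (adjusted p = 0.328). Its counts were fractions in 10 libraries. Cd209e had at most 3 counts in any library and was not tested.

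**Figure D1:**
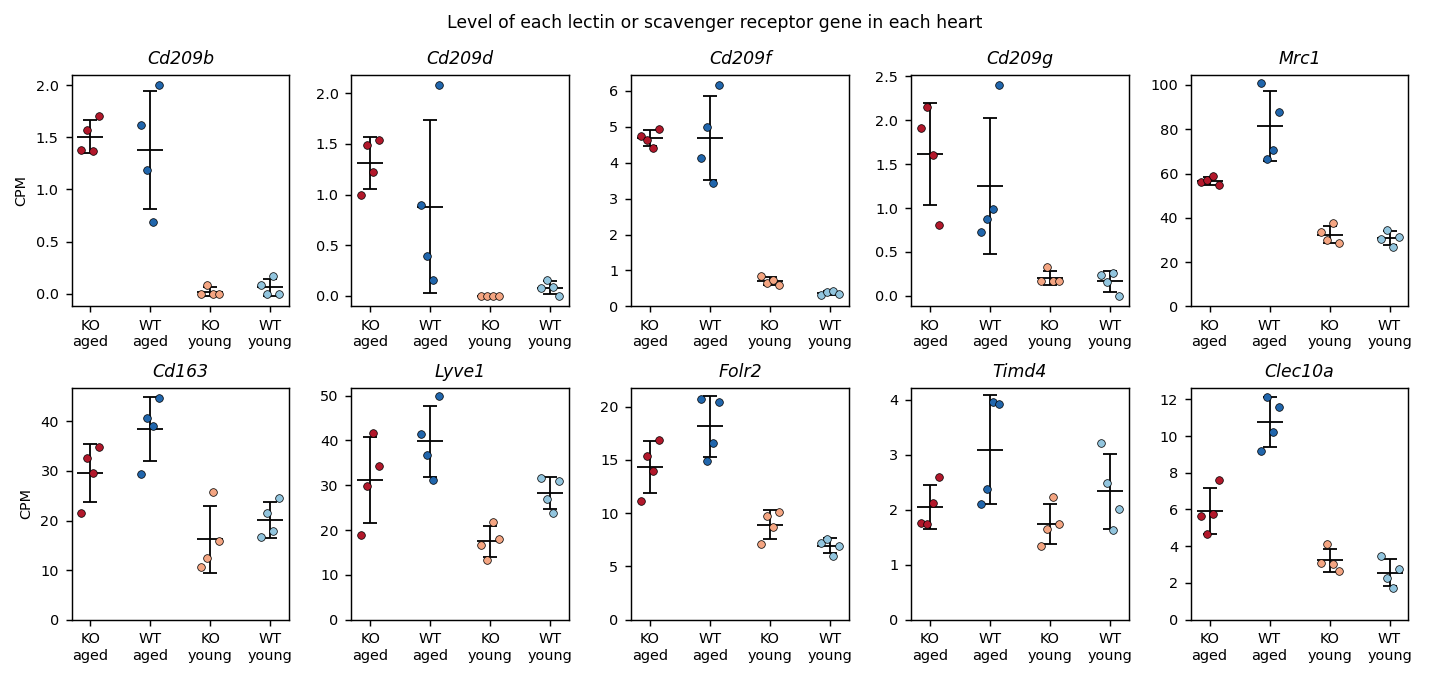
Level of each of the 10 genes in CPM (linear axes that differ between panels) in 4 hearts each of aged KO, aged WT, young KO and young WT mice. Points are hearts, long bars the mean and whiskers 1 SD. The Cd209 genes sit near 0 in young hearts and above every young heart when aged, except for Cd209d in WT, while Timd4 overlaps between all groups.

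Mrc1 and Clec10a were the genes of the 10 that were called between aged genotypes. Mrc1, the macrophage mannose receptor, stood at 56.4, 57.1, 59.0 and 54.6 CPM in aged KO hearts and at 101.0, 66.6, 70.7 and 88.0 CPM in aged WT hearts. All aged KO hearts were below all aged WT hearts, with a narrow KO and a wide WT spread. Young hearts had 33.4, 29.8, 37.5 and 28.8 CPM in KO and 30.6, 34.7, 26.7 and 31.4 CPM in WT, and overlapped. The log2 fold change of KO over WT was -0.52 ± 0.11 in aged hearts and 0.07 ± 0.12 in young hearts.

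Clec10a, also known as MGL1, stood at 5.65, 4.64, 5.78 and 7.6 CPM in aged KO hearts and at 9.16, 12.1, 10.2 and 11.6 CPM in aged WT hearts. The aged genotypes did not overlap, and this was the largest difference between them among the 10 genes, at -0.86 ± 0.18 on the log2 scale. Young hearts had 3.11, 4.11, 3.05 and 2.67 CPM in KO and 3.46, 2.25, 1.72 and 2.77 CPM in WT, which overlapped, at 0.34 ± 0.22. Its neighbour Mgl2 is a close paralog, and both had fractional counts in 7 libraries, with a whole sum in 7 of those 7. Mgl2 on its own was at -0.47 ± 0.13 in aged KO over aged WT hearts and did not pass (adjusted p = 0.0947, edgeR). The sum of Clec10a and Mgl2, free of the split between them, averaged 24.0 ± 2.83 CPM in aged KO hearts and 35.8 ± 3.27 CPM in aged WT hearts, with ranges of 22.1 to 28.1 and 32.5 to 40.3 CPM.

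In aged KO against aged WT hearts, 2 of the 10 genes were called lower, Mrc1 and Clec10a, and 0 higher, where 0.71% of all tested genes were called lower and 0.165% higher. The same 2 were the ones whose groups did not overlap in that direction, against 2.94% of all tested genes, and 0 did so in the other, against 2.1%. Because the genes were chosen with this comparison known, nothing is read from that count. The median over the 10 genes was -0.35, against 0.00 over all tested genes. Neither call held under every choice of libraries. Mrc1 was no longer called without any one of the 4 aged KO hearts or without WT_Aged-1, and Clec10a was no longer called without KO_Aged-114, KO_Aged-115, KO_Aged-122 or WT_Aged-4. Both calls were lost when the fit held only these 2 groups and on log2(FPKM + 0.1) with limma, and that of Mrc1 also on log2(FPKM + 1). Their fold changes without any one heart stayed between -0.61 and -0.41 for Mrc1 and between -1.0 and -0.77 for Clec10a.

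The remaining receptors were intermediate. Cd163 stood at 21.5, 32.6, 29.5 and 34.8 CPM in aged KO hearts and at 29.3, 40.7, 39.1 and 44.7 CPM in aged WT hearts. Young hearts had 10.6, 12.4, 25.8 and 15.9 CPM in KO and 16.7, 21.5, 17.8 and 24.6 CPM in WT. Genotypes overlapped at both ages, at -0.38 ± 0.23 in aged and -0.32 ± 0.24 in young hearts on the log2 scale, and KO_Young-38 was the highest of the young KO hearts.

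Folr2 stood at 11.1, 15.4, 14 and 16.9 CPM in aged KO hearts and at 20.7, 14.9, 16.6 and 20.4 CPM in aged WT hearts. Young hearts had 7.06, 9.71, 8.74 and 10.1 CPM in KO and 7.24, 7.56, 5.94 and 6.96 CPM in WT. The KO over WT value was -0.34 ± 0.14 in aged hearts and 0.36 ± 0.16 in young hearts, and the groups overlapped each time.

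Lyve1 showed its widest gap between genotypes in the young. Young hearts had 16.6, 13.4, 21.9 and 17.9 CPM in KO and 31.5, 26.9, 23.9 and 30.9 CPM in WT. All young KO hearts were below all young WT hearts, at -0.70 ± 0.21 on the log2 scale. Aged hearts had 18.9, 29.8, 41.6 and 34.3 CPM in KO and 41.5, 36.8, 31.1 and 49.9 CPM in WT, and overlapped, at -0.35 ± 0.20. Lyve1 is also a marker of lymphatic endothelium. The defining lymphatic genes Prox1, Pdpn, Flt4, Ccl21a and Mmrn1 summed to 138 to 158 CPM in aged KO, 135 to 168 in aged WT, 143 to 189 in young KO and 151 to 183 in young WT hearts, with none at 0. In edgeR 0 of the 10 lymphatic genes on the list passed between genotypes at either age (1 at an unadjusted p under 0.05 in aged and 0 in young hearts, and 0 passed in DESeq2 at either age). Prox1, the lymphatic identity factor, was at 0.08 ± 0.11 in young KO over young WT hearts (adjusted p = 0.838, edgeR). The part of lymphatic vessels in the Lyve1 values was not tested.

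Timd4, which binds phosphatidylserine on dying cells, had overlapping groups throughout. It stood at 1.76, 1.74, 2.13 and 2.59 CPM in aged KO hearts and at 2.11, 2.38, 3.97 and 3.92 CPM in aged WT hearts. Young hearts had 1.34, 1.65, 2.23 and 1.75 CPM in KO and 3.22, 2.49, 1.64 and 2.01 CPM in WT. The KO over WT values were -0.59 ± 0.25 in aged and -0.43 ± 0.27 in young hearts.

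In young KO against young WT hearts 0 of the 10 genes were called, where 0.0523% of all tested genes were called higher, 0.209% lower and 0.262% in either direction. Cd209f was higher and Lyve1 lower without overlap of the groups, a state found for 4.06% and 4.43% of all tested genes. Lyve1 was called lower in young KO hearts by DESeq2 and when the fit held only these 2 groups.

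**Figure D2:**
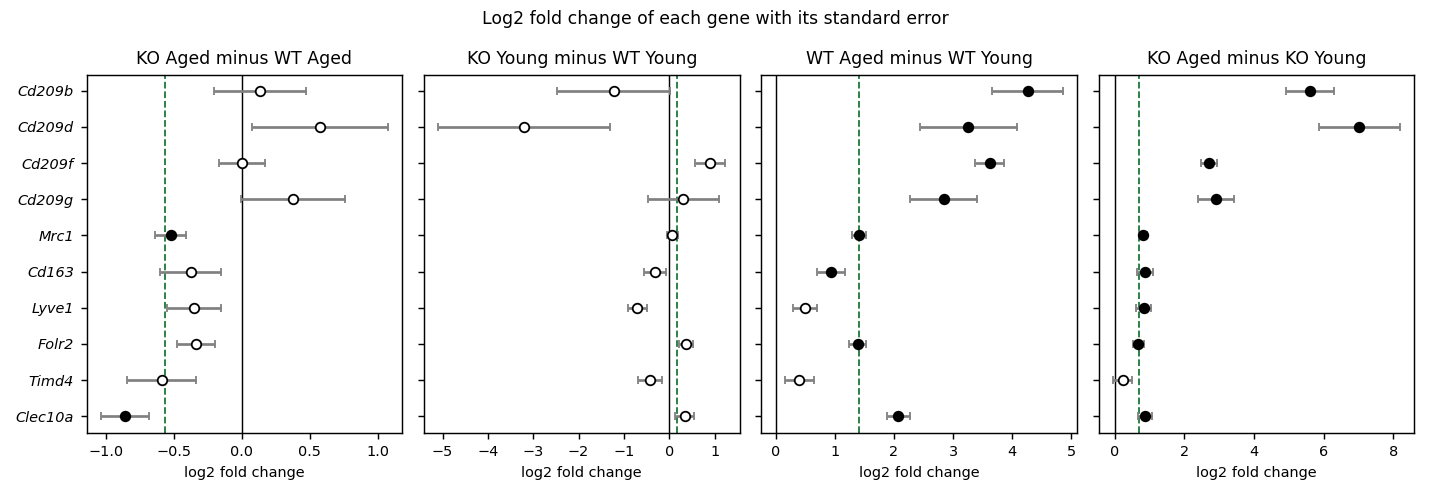
Log2 fold change of each gene (points) with its standard error (bars) in 4 comparisons, from 1 edgeR fit of 16 hearts, with axes that differ between panels. Filled points have an adjusted p under 0.05, open points do not, and the dashed line is the median of the 18 general macrophage genes. Mrc1 and Clec10a are the filled points between aged genotypes, and the Cd209 genes lie to the right of the dashed line there and in both ageing comparisons.

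With age most of the receptors were higher in both genotypes. In aged KO against young KO hearts 9 of 10 were called higher, where 5.03% of all tested genes were, and in aged WT against young WT hearts 8 of 10, where 11.8% were. In WT hearts 0 were called lower, against 9.93% of all tested genes, and 21.7% were called in either direction. Groups did not overlap for 7 of 10 genes in each genotype, against 8.71% of all tested genes in KO and 12% in WT. For 0 of 10 were the aged hearts the lower ones without overlap, against 6.97% in KO and 9.66% in WT. These comparisons were also in view when the genes were chosen, and the 4 Cd209 genes, called in each, entered the fit only through the aged groups, so that a higher aged level was in part built into their entry. Nothing is read from these counts. The median over the 10 genes was 0.87 in KO and 1.74 in WT, against -0.01 over all tested genes in each.

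Clec10a was higher with age by 0.87 ± 0.20 in KO hearts and by 2.07 ± 0.20 in WT hearts on the log2 scale. Mrc1 was higher by 0.81 ± 0.12 in KO and 1.40 ± 0.12 in WT hearts, and Folr2 by 0.69 ± 0.15 in KO and 1.39 ± 0.15 in WT hearts. For these 3 genes the change was the smaller one in KO hearts. Cd163 was higher by 0.87 ± 0.24 in KO and 0.93 ± 0.23 in WT hearts, and Lyve1 by 0.84 ± 0.21 in KO and 0.49 ± 0.20 in WT hearts, where it was not called. Timd4 was not called in either genotype, at 0.23 ± 0.27 in KO and 0.40 ± 0.25 in WT hearts. Cd163 and Lyve1 overlapped between ages in KO hearts, and leaving out KO_Aged-122, KO_Aged-125, KO_Young-27, KO_Young-31 or KO_Young-53 removed both calls, as did a fit of these 2 groups alone. The call of Cd163 was also lost without KO_Aged-115 and with no filter on low counts. Lyve1 was called with age in WT hearts when the fit held those 2 groups alone and without KO_Aged-114. The erythroid genes, whose hemoglobin is the load that Cd163 takes up, summed to 897 to 1840 CPM in aged KO, 1020 to 2210 in aged WT, 616 to 1080 in young KO and 527 to 714 in young WT hearts. Their part in the Cd163 values was not tested.

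The change with age in KO hearts minus the change with age in WT hearts was -1.20 ± 0.28 for Clec10a, -0.70 ± 0.21 for Folr2, -0.59 ± 0.17 for Mrc1 and -0.91 ± 0.37 for Cd209f. It was -0.06 ± 0.33 for Cd163 and -0.16 ± 0.37 for Timd4. Fitted values were above 0 for Lyve1 (0.35 ± 0.29), Cd209b (1.36 ± 1.29), Cd209d (3.77 ± 2.0) and Cd209g (0.06 ± 1.20). These SEs are wide for the size of the values, so no difference in direction between the genes is read from the signs. None of the 10 genes was called in this comparison, where 0.464% of all tested genes were. The KO-minus-WT and aged-minus-young values share hearts, so they are set side by side and not as independent evidence. Clec10a was called here by DESeq2 and without KO_Aged-125, WT_Aged-1 or WT_Young-29.

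Per length of transcript, Folr2, Lyve1, Mrc1, Cd163 and Clec10a had the highest means in every group, in a similar order. The order of the other receptors changed with age. The mean of Cd209f was above that of Timd4 in aged hearts (4.89 against 1.17 FPKM in KO, 4.85 against 1.76 in WT). In young hearts it was below (0.657 against 0.94 FPKM in KO, 0.43 against 1.32 in WT). In aged KO hearts Folr2 came first at 18.1 FPKM, then Lyve1 at 13.7 and Mrc1 at 11.6, and these 3 overlapped in order. Cd163 at 7.29, Clec10a at 4.93 and Cd209f at 4.89 FPKM formed the next overlapping run, and Cd209d, Cd209g, Timd4 and Cd209b were between 2.42 and 0.93 FPKM. In aged WT hearts Folr2 at 22.9, Lyve1 at 17.5 and Mrc1 at 16.6 FPKM also overlapped in order, and Clec10a at 8.95 FPKM stood apart from Cd209f at 4.85. In young KO hearts Folr2 at 10.6, Lyve1 at 7.25, Mrc1 at 6.26, Cd163 at 3.77 and Clec10a at 2.57 FPKM each overlapped with the next. Young WT hearts were the group in which Lyve1 came first, at 11.8 FPKM, apart from Folr2 at 8.34.

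The 18 general macrophage genes, such as Csf1r (the receptor for the growth factor Csf1), Adgre1 (F4/80) and the complement genes C1qa, C1qb and C1qc, summed to 435 to 493 CPM in aged KO hearts and 558 to 918 CPM in aged WT hearts. They summed to 272 to 318 CPM in young KO and 215 to 303 CPM in young WT hearts. Between aged genotypes all 18 had lower values in KO hearts, with a list median of -0.57, and 15 had an unadjusted p under 0.05 (edgeR). Of these, 2 were called, the leukocyte phosphatase Ptprc (-0.90 ± 0.16, adjusted p = 0.0074) and the Fc receptor chain Fcer1g (-0.78 ± 0.16, adjusted p = 0.0175, edgeR). DESeq2 called 9 lower. The count in edgeR ranged from 1 without KO_Aged-115 to 10 without WT_Aged-12. With age 11 of 18 were called higher in KO hearts (median 0.71) and 17 of 18 in WT hearts (median 1.40). Of all tested genes 5.03% in KO and 11.8% in WT hearts were called higher with age. Between aged genotypes 0.71% were called lower and 0.165% higher. The same shares are the background for the lists below. The share of all tested genes at an unadjusted p under 0.05 is not given for any list. The change with age in KO minus that in WT hearts was below 0 for all 18, and 14 had an unadjusted p under 0.05 (edgeR). It was called for Ptprc (-1.12 ± 0.24, adjusted p = 0.0416) and Fcer1g (-1.10 ± 0.24, adjusted p = 0.0429, edgeR).

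**Figure D3:**
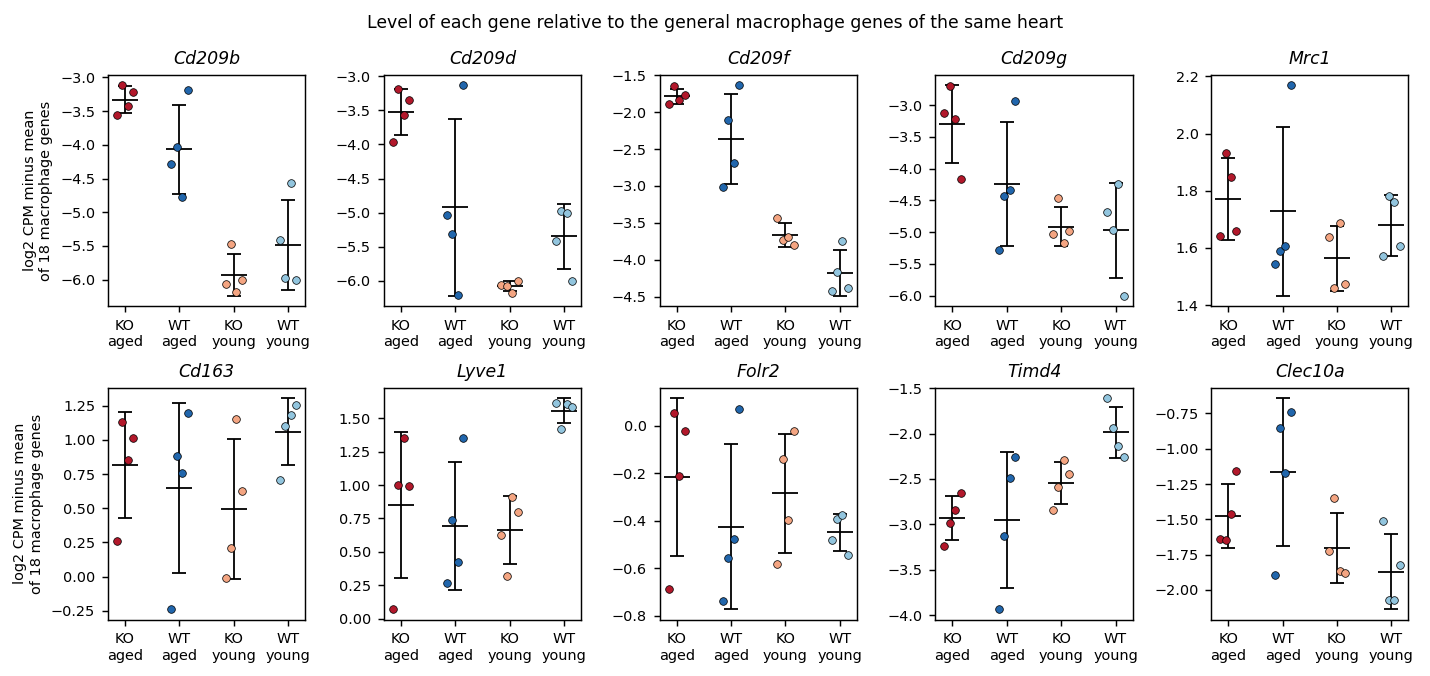
Log2 CPM (prior count of 2) of each gene minus the mean log2 CPM of the 18 general macrophage genes in the same heart, for 4 hearts each of aged KO, aged WT, young KO and young WT mice. Points are hearts, long bars the mean and whiskers 1 SD, on axes that differ between panels. Aged KO hearts are above young KO hearts for the 4 Cd209 genes, and young WT hearts are above aged WT hearts for Lyve1 and Timd4.

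Set against those 18 genes within each heart, the receptors fell into separate patterns. The mean log2 CPM of the 18 genes was 4.06 in aged KO, 4.61 in aged WT, 3.45 in young KO and 3.27 in young WT hearts, lower in every aged KO than in every aged WT heart. Relative to it, Mrc1 differed by 0.04 and Folr2 by 0.21 between aged KO and aged WT hearts, and Mrc1 by 0.21 with age in KO and by 0.05 in WT hearts. Clec10a was at -0.31 relative to the 18 genes in aged KO over aged WT hearts, with overlap. That value moved with single hearts, to -0.56 without WT_Aged-1 and to -0.17 without WT_Aged-12. WT_Aged-1 had the lowest relative Clec10a value of the aged WT hearts, -1.896, where the others ran from -1.173 to -0.738. Its general macrophage mean, 5.116, was the highest. For Mrc1 the relative values of the aged genotypes overlapped, unlike its CPM.

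Relative to the general macrophage genes, the Cd209 genes were higher with age in KO hearts, while in WT hearts most of them overlapped between ages. They entered the fit only through the aged groups, so a higher aged level was in part built in. The share of all tested genes without overlap was not computed on this relative scale. In KO hearts the relative difference between aged and young was 2.60 for Cd209b, 2.56 for Cd209d, 1.88 for Cd209f and 1.61 for Cd209g, each without overlap. The size depended on the scale, and with log2(FPKM + 1) these values were 0.33 for Cd209b, 1.16 for Cd209d, 1.23 for Cd209f and 0.57 for Cd209g, while Cd209d, at 0 counts in young KO hearts, reached 3.95 with log2(FPKM + 0.1). In WT hearts it was 1.82 for Cd209f, without overlap, and 1.42, 0.43 and 0.73 for Cd209b, Cd209d and Cd209g, with overlap. The sign of those last 3 also depended on the scale, since with log2(FPKM + 1) they were -0.38, -0.23 and -0.25, while Cd209f stayed at 0.78. That of Cd209d was also -0.17 without WT_Aged-12. The constant added before the logarithm narrows differences between low values.

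In WT hearts Lyve1 and Timd4 had smaller fitted changes with age than the mean of the 18 genes, and neither was called. Their own log2 fold changes were 0.49 and 0.40, while the mean of the 18 genes was higher by 1.34. A gene unchanged with age would therefore also lie below 0 here. Relative to the 18 genes, all aged WT hearts were below all young WT hearts, at -0.86 for Lyve1 and -0.97 for Timd4 on the log2 scale. For Timd4 the nearest hearts were at -2.264 (aged WT) and -2.255 (young WT). In KO hearts the relative values of aged over young hearts were 0.19 for Lyve1 and -0.39 for Timd4, with overlap. The young genotypes were apart in the same measure, with young KO hearts at -0.89 for Lyve1 and -0.56 for Timd4 relative to young WT hearts and no overlap in either. The young KO hearts also had the higher general macrophage mean, by 0.18 and barely without overlap. The nearest hearts were at 3.38 (KO_Young-53) and 3.376 (WT_Young-42), and WT_Young-39 was the lowest at 2.986. In edgeR 0 of the 18 genes were called between young genotypes.

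Some other resident macrophage genes rose with age. Of 20 tested, 9 rose in KO hearts (median 0.63) and 13 in WT hearts (median 0.89), and 0 fell in either. The complement receptor Vsig4 rose by 3.19 ± 0.48 in KO hearts (adjusted p = 0.000466) and averaged 3.87 ± 1.78 CPM in aged KO and 0.416 ± 0.183 CPM in young KO hearts. F13a1, the clotting factor XIII A subunit, rose by 1.28 ± 0.19 in KO (adjusted p = 0.000496) and 1.54 ± 0.19 in WT hearts (adjusted p = 2.19e-05, edgeR). Between aged genotypes 0 of 20 passed in edgeR (3 at an unadjusted p under 0.05) and 1 in DESeq2, with Cbr2 at -0.36 ± 0.15 (adjusted p = 0.374) and Siglec1, a sialic acid lectin, at -0.79 ± 0.19 (adjusted p = 0.0514).

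Among 28 other C-type lectin and scavenger receptor genes, 10 rose and 1 fell with age in KO hearts (median 0.51), and 17 rose and 2 fell in WT hearts (median 1.04). The count of genes called with age in KO hearts ran from 5 without KO_Young-53 to 15 without WT_Aged-1. The scavenger receptor Msr1 rose by 1.32 ± 0.26 in KO (adjusted p = 0.00368) and 1.88 ± 0.25 in WT hearts (adjusted p = 3.07e-05, edgeR). Scarb1, the receptor for high-density lipoprotein, fell with age in both genotypes, at -0.52 ± 0.11 in KO (adjusted p = 0.00742) and -0.52 ± 0.11 in WT hearts (adjusted p = 0.00253, edgeR). Between aged genotypes 21 of 28 had values below 0 in KO hearts and 7 above (median -0.24). In edgeR 13 had an unadjusted p under 0.05, in either direction, and 1 passed. The gene that passed was Mrc2, the collagen receptor of the mannose receptor family, known from fibroblasts. It rose in aged KO hearts (0.45 ± 0.10, adjusted p = 0.0458, edgeR), opposite in sign to Mrc1 and to most of the list. Mrc2 averaged 36.2 ± 3.4 CPM in aged KO hearts and 26.6 ± 2.07 CPM in aged WT hearts.

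Most monocyte genes had lower values in aged KO hearts, and a minority passed the threshold. Of 15 tested, 11 had values below 0 and 4 above (median -0.49). In edgeR 10 had an unadjusted p under 0.05, in either direction. In aged KO hearts 3 were called lower, among them the integrin Itgal (-1.33 ± 0.26, adjusted p = 0.0136) and the monocyte marker Ly6c2 (-2.12 ± 0.49, adjusted p = 0.0458, edgeR). Itgal also had a smaller change with age in KO than in WT hearts (-1.91 ± 0.40, adjusted p = 0.0367, edgeR). DESeq2 called 5 of the 15 lower in aged KO hearts. The count in edgeR ran from 0 to 5 when a single heart was left out. Ccr2 was at -0.44 ± 0.30 (adjusted p = 0.645). The 16 genes of the list summed to 570 to 642 CPM in aged KO, 634 to 976 in aged WT, 391 to 447 in young KO and 341 to 491 in young WT hearts, with none at 0 in any group as a whole. WT_Aged-1 alone reached 976 CPM, while WT_Aged-4, WT_Aged-5 and WT_Aged-12 were at 634, 652 and 650 CPM. With age 3 of 15 rose in KO hearts and 10 of 15 in WT hearts, including Ccr2 in both (1.73 ± 0.34 in KO, adjusted p = 0.0051, and 2.51 ± 0.34 in WT, adjusted p = 9.23e-05). Of 7 dendritic cell genes 0 passed between aged genotypes in edgeR (1 at an unadjusted p under 0.05), and 0 rose with age in KO (2 at an unadjusted p under 0.05) and 5 in WT hearts. DESeq2 gave the same 3 counts. The part of monocytes and dendritic cells in the receptor values was not tested.

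**Figure D4:**
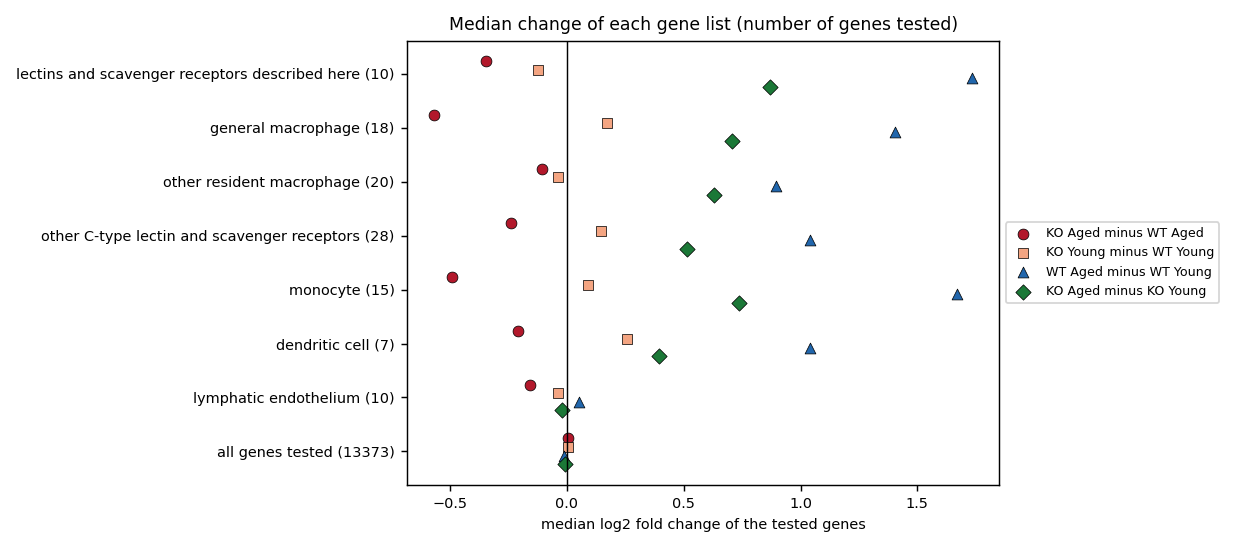
Median log2 fold change of the tested genes of each list in 4 comparisons, with the number of genes tested in brackets. Circles are aged KO minus aged WT, squares young KO minus young WT, triangles aged WT minus young WT and diamonds aged KO minus young KO. Between aged genotypes the general macrophage list is at -0.57, the 10 receptors at -0.35 and all tested genes at 0.00.

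Genes that handle the cargo of Cd163 rose with age in part. Of 14 genes of hemoglobin and haptoglobin clearance and iron release, 3 rose in KO hearts and 8 rose and 2 fell in WT hearts. Heme oxygenase Hmox1 rose by 1.02 ± 0.23 in KO (adjusted p = 0.0128) and 1.38 ± 0.24 in WT hearts (adjusted p = 0.000594, edgeR). Between aged genotypes 0 of 14 passed in edgeR (4 at an unadjusted p under 0.05) and 0 in DESeq2, with Hmox1 at 0.03 ± 0.22 (adjusted p = 0.985).

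Among 23 macrophage growth factor, receptor and regulator genes 1 passed between aged genotypes. It was Csf2rb, the shared receptor chain for GM-CSF and interleukins 3 and 5, which fell in aged KO hearts (-0.97 ± 0.18, adjusted p = 0.0122) and whose change with age also differed between genotypes (-1.56 ± 0.29, adjusted p = 0.0158, edgeR). The ligands of Csf1r did not pass between aged genotypes, with Csf1 at 0.00 ± 0.10 (adjusted p = 0.997) and Il34 at 0.15 ± 0.16 (adjusted p = 0.8). Csf1 rose with age in WT hearts (0.38 ± 0.10, adjusted p = 0.00924), and was at 0.20 ± 0.10 in KO hearts (adjusted p = 0.245). Of 8 genes of alternative activation 0 passed between aged genotypes in edgeR (5 at an unadjusted p under 0.05) and 1 in DESeq2, while 1 rose with age in KO hearts (Mgl2, 0.52 ± 0.13, adjusted p = 0.0199) and 4 in WT hearts. In young KO against young WT hearts 0 of the 130 tested genes on the 9 lists passed in edgeR (15 at an unadjusted p under 0.05). DESeq2 called 1 gene each on the hemoglobin and the alternative activation list.

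Likeness of pattern over the 16 hearts was measured as the root mean square difference between log2 CPM values centred on each gene's own mean. The gene nearest to Mrc1 was Nckap1l, a subunit of the leukocyte actin regulator, at 0.144, followed by Pik3cg at 0.156 and Adgre1 at 0.168. Folr2 was nearest to the chemokine Pf4, at 0.15, and Clec10a to the integrin chain Itgb2, at 0.22. For these 3 the nearest gene was a leukocyte gene. Cd163 was nearest to Acer2, a ceramidase, at 0.253, with Csf1r the third non-member at 0.301. Lyve1 was nearest to Gm14440 at 0.259, and Timd4 to Lpin2 at 0.287.

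The Cd209 genes were less closely matched, on lower counts. Cd209d was the gene whose nearest neighbour was another of the 10, Cd209b, at 0.553. Cd209b itself was nearest to LOC101055663 at 0.463 with Cd209f next at 0.471, Cd209f to Gm7609 at 0.444, and Cd209g to the neuronal gene Dock3 at 0.459. WT_Aged-12 was the highest aged WT heart for 6 of the 10 genes and the lowest for 0, although its general macrophage mean, 4.29, was the lowest of the aged WT hearts. KO_Aged-125 was the highest aged KO heart for 7 of the 10 genes and the lowest for 2, Cd209g and Mrc1.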

How the data were processed

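The authors deposited expected counts and FPKM values per gene for 16 hearts. The submitters' processing notes name HISAT, Bowtie2 and GRCm39, and the sources used here do not state which program counted the reads. The expected counts, which were not whole where reads fit several genes, were rounded before the fit. CPM are rounded counts over library size times the TMM factor; log2 CPM carry a prior count of 2, computed here from the deposited counts.

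One fit of the 16 libraries, with 4 group means, used edgeR 4.0.16 (R 4.3.3): filterByExpr, TMM, the quasi-likelihood F test with robust estimation and Benjamini-Hochberg adjustment over 13373 genes, called at an adjusted p under 0.05. Of 18346 genes, 226 had no count. SEs are the absolute log2 fold change over the square root of F. The fit was tested on simulated data. Alternatives were DESeq2 1.42.0, limma 3.58.1 on log2(FPKM + 1) and log2(FPKM + 0.1), no filter, another normalization, 2 groups only, each heart left out and, chosen after seeing the data, edgeR without robust estimation and the values relative to general macrophage genes. Promoters are RefSeq's, GRCm38.p6.

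The 10 genes and all lists were chosen with earlier results of these data known. Beside the 10 genes, Armh4, the other Cd209 genes, up to 4 genes a list and comparison by adjusted p and a list's defining genes are named, with the nearest genes by pattern. The submitters describe the hearts as independent biological replicates. No batch is given in the labels. Some genes of the lists are counted but not reported by name here.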

Additional observations from a re-analysis of the deposited data

Results flagged for a closer look

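Of 52 groups of 4 hearts examined for a heart far from the rest, 5 had one. Chance flags about 1 in 20 groups of continuous values, a rate that does not apply to counts this low, since 1 count beside 3 libraries at 0 is always flagged. WT_Aged-12 had 2.4 CPM of Cd209g, against 0.729 to 0.992 CPM in the other aged WT hearts. KO_Young-31 had 0.329 CPM of Cd209g, on 3.7 counts, against 0.165 to 0.168 CPM in the other young KO hearts. The same heart had 0.0823 CPM of Cd209b, which is 1 count, where the other young KO hearts had 0. WT_Young-42 had 0.0839 CPM of Cd209a, against 0.241 to 0.258 CPM in the other young WT hearts, and WT_Young-34 had 0.0804 CPM of Cd209e, which is 1 count, where the others had 0.

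For Clec10a, Folr2 and Cd209d all 4 KO hearts lay on 1 side of the WT mean at one age and all 4 on the other side at the other age. The share of all tested genes that meet this rule was not computed, so no reversal is read from it. The fitted KO-minus-WT values of Mrc1 and Cd209b also had opposite signs (-0.52 aged and 0.07 young for Mrc1, 0.13 aged and -1.22 young for Cd209b), with young KO hearts on both sides of the young WT mean. The aged minus the young value was -1.2 for Clec10a, -0.7 for Folr2 and 3.77 for Cd209d on the log2 scale. None of the 3 passed the adjusted threshold of that comparison in edgeR, and the value for Cd209d rests on 0 counts in young KO hearts and 4 counts in young WT hearts.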

How the results depend on the processing

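No paired analysis was possible because no animal number recurs across groups. Of 1140 log2 changes of the 10 genes recomputed over 23 settings, 1103 moved by less than the spread, 37 moved by more and 0 of the called values changed sign. Between aged genotypes 117 genes and 2 of the 10 receptors were called. DESeq2 called 261 genes, the fit of these 2 groups 17 and 0 of the receptors, limma on log2(FPKM + 1) 1 receptor, and limma on log2(FPKM + 0.1) 73 and 0. Between young genotypes 35 genes and 0 receptors were called, against 149 and 1 by DESeq2, 132 and 1 in the fit of 2 groups, and 15 genes by limma on log2(FPKM + 1). For the difference between the changes with age, 62 genes and 0 receptors were called, against 217 and 1 by DESeq2. The cause of these shifts was not tested, except that the fit of 2 groups holds fewer hearts.

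With each heart left out, genes called between aged genotypes ran from 31 (without KO_Aged-115) to 238 (without WT_Aged-12) and receptors from 0 to 2. Between young genotypes genes ran from 4 (without WT_Young-39) to 82 (without WT_Aged-1), and receptors stayed at 0. With age in KO hearts genes ran from 634 to 1429 and receptors from 7 to 9, in WT hearts genes from 2008 to 2889 and receptors from 8 to 9, and for the difference genes from 24 to 163 and receptors from 0 to 1. Of 720 relative values recomputed, 711 stayed within the spread. Depth limits the Cd209 genes most, with 0 to 3.7 counts per library for all but Cd209f in young hearts.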
